A study of Triticum aestivum with 6 samples.

Results

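The genes described here lie in the middle of each wheat chromosome by the order of their identifiers. On each of the 21 chromosomes from 1A to 7D the listed genes were sorted by the number that follows 02G in the identifier, and those above the 40th and up to the 60th percentile of rank were taken as the middle genes. This gave 13835 of 69173 placed genes, out of 70043 genes listed in all. The other 870 had no chromosome in their identifier and were left out of the comparison. The remaining 55338 placed genes are called the rest, and 13834 of them, in the outer 10% of ranks at each end, are called the distal genes.

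RNA was sequenced from axillary buds, which sit between leaf and stem and grow out into tillers, of the spring wheat variety Fielder (wild type) and of the tatfl1-5 mutant made in Fielder, with 3 libraries of each. The mutant is 1 triple-null line (aabbdd) without the editing transgene, in which CRISPR/Cas9 had cut all homoeologs of TaTFL1-5, a homolog of TERMINAL FLOWER 1, which acts in the flowering transition and in shoot architecture. The paper is not uniform on the age of the seedlings (10 days in one place, 3 weeks in another), and it describes the replicates as biological. With 1 edited line, the edit and any other difference that this line carries cannot be told apart. The tissue label was not checked against marker genes, because only part of the identifiers could be annotated.

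Bread wheat carries the A, B and D subgenomes, so that most genes have related copies, or homoeologs, on chromosomes with the same number. Wheat chromosomes recombine mainly toward their ends, and genes there tend to be used in few tissues or conditions, whereas genes nearer the centromere tend to be used broadly. The rank of a gene gives its order and not its position in bases, so that a middle gene here need not be near a centromere.

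The libraries held between 13320461 and 17174131 counts. Of the targeted genes, neither of the homoeologs analysed is a middle gene, and counts of an edited transcript do not check small edits. TaTFL1-5D was not analysed here. TaTFL1-5A had 9, 14 and 21 counts in Fielder against 1, 7 and 5 in the mutant, and TaTFL1-5B had 46, 44 and 31 in Fielder against 20, 19 and 23 in the mutant. Neither passed the test (edgeR, adjusted p = 0.15 and 0.13).

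Middle genes were expressed more often than the rest in every library. A gene was taken as expressed at an FPKM (fragments per kilobase of gene, scaled to the total counts of the library) of at least 1. In the 6 libraries, between 68.5% and 69.6% of the middle genes were expressed, against 62.9% to 64.1% of the rest and 55.6% to 56.4% of the distal genes, so that the ranges did not overlap. The gap between middle and rest averaged 5.60 percentage points. In all 6 libraries, 8177 middle genes (59.1%) were expressed, against 53.6% of the rest and 46.6% of the distal genes. In none of them, 2972 middle genes (21.5%) were expressed, against 26.7% and 34.2%. Over all listed middle genes the median FPKM was 3.15, 3.14 and 3.09 in Fielder and 3.03, 2.83 and 3.04 in the mutant, above the 2.25 to 2.43 of the rest and the 1.52 to 1.60 of the distal genes. The log2 ratio of the medians, middle over rest, averaged 0.36, and among the genes that passed the filter on low counts alone it was 0.08.

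The most abundant transcripts were not concentrated in the middle. A mean of 1.20% of middle genes reached an FPKM of 100, against 1.37% of the rest, although 20.8% of the middle genes reached an FPKM of 10, against 19.0%. Of the 20 placed genes with the highest mean counts, 3 were middle genes, with 0.433% of the placed counts, and 17 belonged to the rest, with 2.34%. The middle genes gave between 20% and 20.6% of the placed counts, close to their 20% share of the genes. Their lengths, worked out from the counts and the FPKM values, had a median of 1614 bases, against 1609 in the rest, so that the FPKM gap did not come with a length gap.

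**Figure D1:**
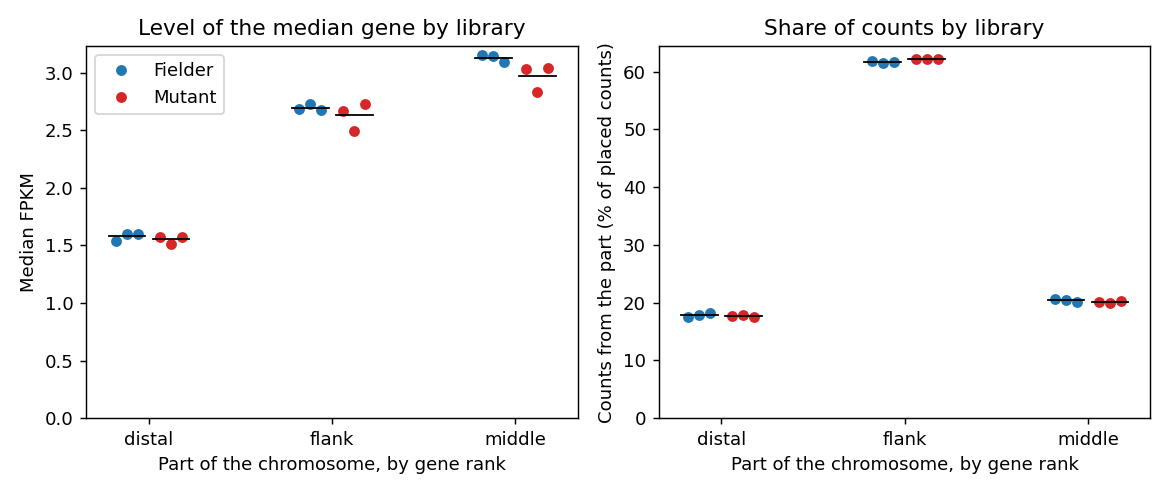
Median FPKM over all genes (left) and percent of placed counts (right) of the distal, flanking and middle genes in each of the 6 libraries (points, blue for Fielder and red for the mutant, black bars for the means of 3 libraries). The middle medians lie between 2.83 and 3.15, above every distal value, while the share of counts from the middle stays between 20% and 20.6%.

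The middle was also the denser part of the gene list. Identifiers of this annotation rise in steps of 100, and a gene is listed only if it had at least 1 count in some library. Within the middle, 13820 of 18305 steps (75.5%) held a listed gene, against 55242 of 89679 (61.6%) elsewhere. The share was higher in the middle in 21 of 21 chromosomes, but nearly level on 5A (66.10% against 66.08%) and 5D (66.84% against 66.65%). Why the other identifiers are unlisted was not tested.

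Along the chromosome, expression rose from both ends toward a peak that lay just before the middle. In bins of 5% of the ranks, 55.8% of the genes of the first bin and 55% of the last were expressed, with median FPKM values of 1.55 and 1.49. The highest bin was that between the 35th and 40th percentile, with 73.2% expressed and a median FPKM of 3.78. The 4 bins of the middle declined from there, with 71.3%, 69.6%, 69.1% and 66.4% of the genes expressed and median FPKM values of 3.32, 3.12, 3.01 and 2.74. The middle by rank thus begins at the shoulder of the peak.

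**Figure D2:**
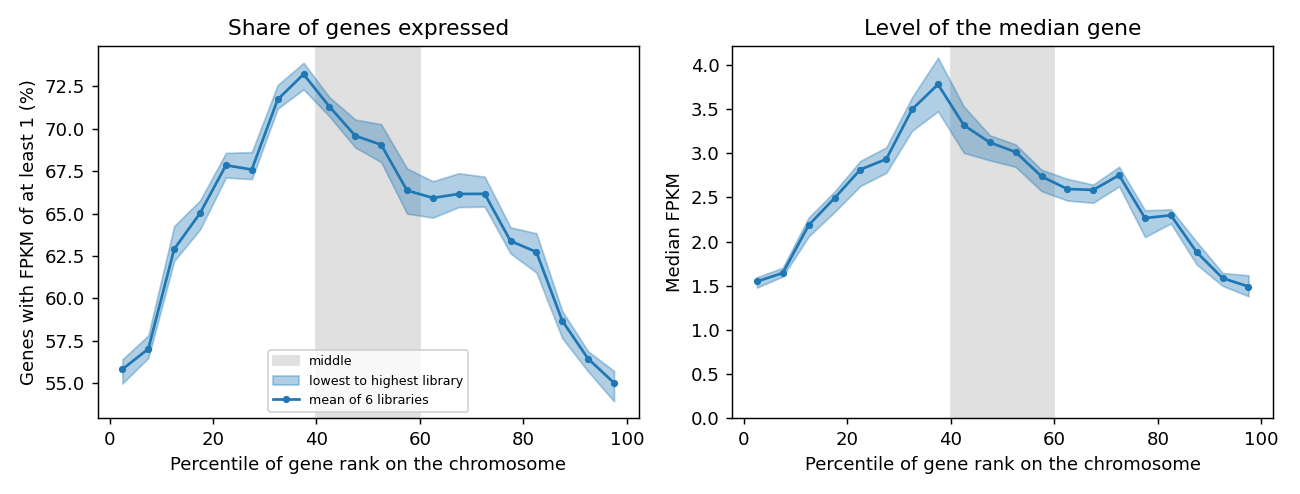
Percent of genes with an FPKM of at least 1 (left) and median FPKM (right) against the percentile of gene rank, over all 21 chromosomes in bins of 5%, with the mean of the 6 libraries as a line, their range as a band and the middle shaded. Both measures rise from the ends, peak at 73.2% and 3.78 between the 35th and 40th percentile, and decline through the middle.

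The pattern was not shared by every chromosome. The middle had the higher median FPKM and the higher share of expressed genes on 17 of 21 chromosomes. Among these 17, 3A was nearly level, at 2.75 against 2.69, and its middle median was the higher in 3 of 6 libraries. The 4 exceptions were 4A and all chromosomes of group 5. On 5A the middle median FPKM was 1.81 against 2.79 in the rest, on 5B it was 1.75 against 2.65, and on 5D it was 1.99 against 2.76. In each of these the middle was below the rest in 6 of 6 libraries. The expressed shares went the same way, with 59.2% against 67.1% on 5A, 59.2% against 65.3% on 5B and 61.8% against 66.9% on 5D. Over the 2245 middle genes of group 5 the expressed share was 6.31 percentage points lower than in the rest (-6.31), and 66.7% of the identifier steps held a listed gene.

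The opposite end was held by 4D and 4B. The middle median FPKM was 4.78 against 2.82 on 4D, with 80.0% of the middle genes expressed, and 4.64 against 2.64 on 4B, with 78.4% expressed. Their homoeolog 4A differed from both, with 2.62 against 2.87 and 65.1% expressed against 66.1%, and its middle median exceeded that of its rest in 1 of 6 libraries. The widest group gaps in the expressed share were in groups 7 and 6, at 10.6 and 10.1 percentage points.

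The bin with the most expressed genes lay inside the middle in 3 of the 7 groups. It was that between the 40th and 45th percentile in groups 4 (79.1%) and 6 (79.0%) and that between the 45th and 50th in group 7 (77.1%). In group 2 it lay just before the middle, between the 35th and 40th percentile, and held the highest share of any group, 84.8%, with a median FPKM of 5.38. In groups 3 and 5 it lay between the 30th and 35th percentile, at 78.9% and 75.3%, and in group 1 between the 25th and 30th, at 79.5%. Group 5 had a second rise at the 70th to 75th percentile (73.6%). Between its rises, the 4 bins of the middle were at 57.2%, 59.1%, 64.9% and 59.2%, and the lowest bin lay just past the middle, between the 60th and 65th percentile, at 53.6% and a median FPKM of 1.25. Without group 5 the log2 ratio of the median FPKM, middle over rest, was 0.52 and the gap in expressed genes 7.91 percentage points.

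**Figure D3:**
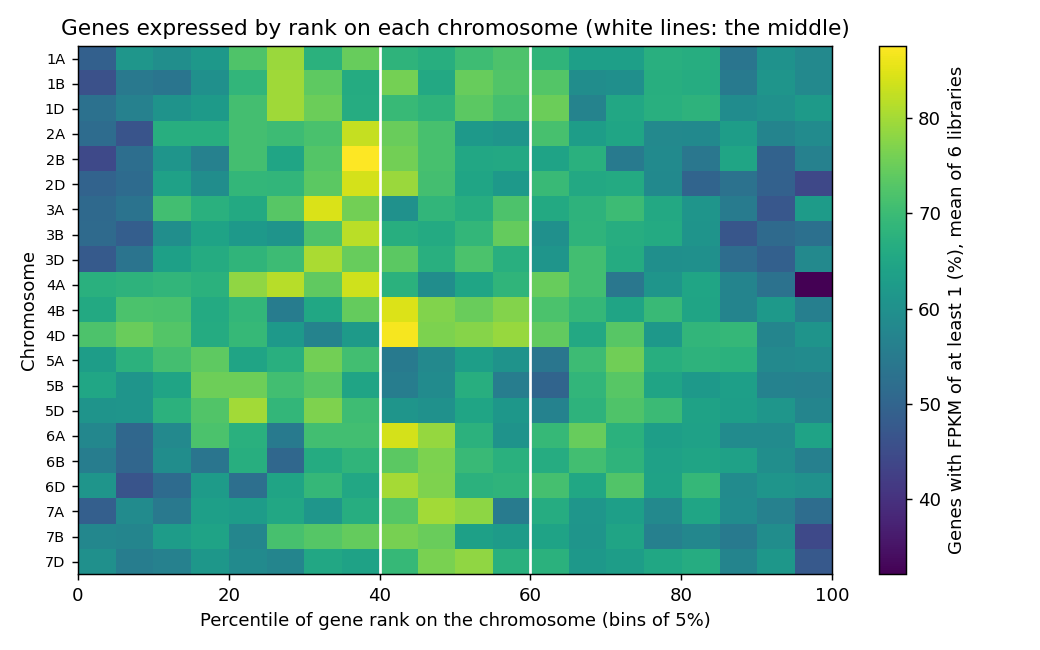
Percent of genes with an FPKM of at least 1 (colour, mean of 6 libraries) by chromosome (rows) and bin of 5% of gene rank (columns), with the middle between the white lines. Bright bins line up among homoeologs and fall inside the middle on 4B, 4D and groups 6 and 7, before it in groups 1 to 3, and on either side of it in group 5, where the lowest bin between the rises is that just past the middle, at 53.6%.

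The subgenomes differed in the same measure. The middle median FPKM was 2.84 in A against 2.53 in the A rest, 3.09 against 2.26 in B and 3.22 against 2.37 in D. Of the middle genes, 67.2%, 69.5% and 70.6% were expressed in A, B and D, against 64.3%, 62.6% and 63.5% of the rest. The distal genes were nearly level between the subgenomes, at 1.56, 1.53 and 1.61. Much of the excess in A came with 7A. In A the log2 ratio of the median FPKM, middle over rest, was 0.17 with 7A and 0.04 without it. The gap in expressed genes in A was 2.84 percentage points with 7A and 1.37 without it.

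The height of the middle above the rest was slightly lower in the mutant than in Fielder. The log2 ratio of the median FPKM was 0.40, 0.37 and 0.37 in Fielder against 0.34, 0.33 and 0.33 in the mutant, a difference of -0.05 (0.38 ± 0.02 against 0.33 ± 0.01, SD, n = 3) without overlap. The exact two-sided permutation test gave p = 0.1, the smallest that 3 against 3 libraries allow, and 0.375 after Benjamini-Hochberg adjustment over the 5 measures compared in this way. Without the run of silent genes on 7A described below, the difference was -0.03 with the same p = 0.1 (exact permutation). By subgenome it was -0.10 in A (p = 0.1, exact permutation), where it came to -0.04 without the run and the groups overlapped (p = 0.4). It was -0.01 in B (p = 0.4, exact permutation) and -0.05 in D (p = 0.1).

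The other 4 measures per library overlapped between the groups. The share of placed counts from middle genes was 20.6%, 20.6% and 20.1% in Fielder and 20.2%, 20% and 20.3% in the mutant (20.4 ± 0.249 against 20.2 ± 0.139, SD, n = 3, exact permutation p = 0.3). The gap in expressed genes was 5.66 ± 0.180 percentage points in Fielder and 5.53 ± 0.0473 in the mutant (SD, n = 3, exact permutation p = 0.3). No difference in these measures was detectable between the groups.

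Replicates of a group varied slightly less for middle genes than for the rest. The spread was taken as the SD over 3 replicates of log2 CPM (counts scaled to a fixed library total, with a prior count of 2) of each tested gene. Its median over middle genes was 0.308 in Fielder and 0.235 in the mutant, against 0.319 and 0.246 in the rest and 0.330 and 0.253 in the distal genes. The ratio of middle to rest was thus 0.967 and 0.954. Abundance differed too, the median of the mean log2 CPM being 3.01 in the tested middle genes and 2.92 in the rest. Within classes of equal mean log2 CPM the ratio lay between 0.949 and 0.995 in Fielder and between 0.922 and 1.01 in the mutant, so that in the mutant it turned in 2 of 6 classes. The middle had the larger spread on 6 of 21 chromosomes in Fielder and on 8 of 21 in the mutant.

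The mutant was compared with Fielder by the edgeR quasi-likelihood test over all 52228 genes that passed the filter on low counts, and calls needed an adjusted p under 0.05 together with more than a 2-fold change. Of the middle genes, 10900 (78.8%) were tested, against 73.8% of the rest and 67.1% of the distal genes. Of these, 815 (7.48%) rose in the mutant, where the share over all tested genes was 7.98%, and 642 (5.89%) fell, where it was 5.75%. In the rest, 8.10% rose and 5.73% fell. The middle shares are near those of all genes, and no result about the middle is read from them. Scaled by library size alone, 732 middle genes were called higher and 780 lower, so that the balance of rises and falls turned. In bulk samples, fewer cells that use a gene and less of its RNA per cell cannot be told apart.

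Whether the share of falls lay above or below that of the rest depended on the setting. Leaving out the run on 7A described below, 586 of the tested middle genes (5.40%) fell, below the share in the rest, and 7.52% rose. With limits at the 35th and 65th percentile and the run kept, the share of falls relative to the rest was 0.967. Typical changes were alike, with a median log2 fold change of -0.01 in the middle and 0.01 in the rest and a median absolute value of 0.47 and 0.48. Among called middle genes, those that rose had median FPKM values of 2.64 in Fielder and 7.37 in the mutant, a median log2 fold change of 1.47, and 180 of the 815 exceeded a 4-fold change. Those that fell had 6.76 and 2.20, a median of -1.42, and 151 of 642 exceeded 4-fold. Groups did not overlap for 803 of the rises and 625 of the falls, but the call had already selected these genes for separation. With each library left out in turn, 455 of the rises and 373 of the falls stayed called in all 6 fits. These counts of called genes were not set against all called genes, so no result about the middle is read from them.

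Shares of calls varied more among the middles of single chromosomes, which hold between 436 and 600 tested genes each, than among the larger rests. The share of middle genes that rose ranged from 5.02% on 7A to 11.5% on 6A, against 7.10% to 10.5% in the rests, and lay above the rest on 6 of 21 chromosomes. On 6A, 50 of 436 tested middle genes rose (7.88% of its rest did), and the share was between 8.52% and 11.5% with each library left out. The share that fell ranged from 3.50% on 2B to 14.2% on 7A, against 4.26% to 7.26% in the rests, and lay above the rest on 9 of 21.

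**Figure D4:**
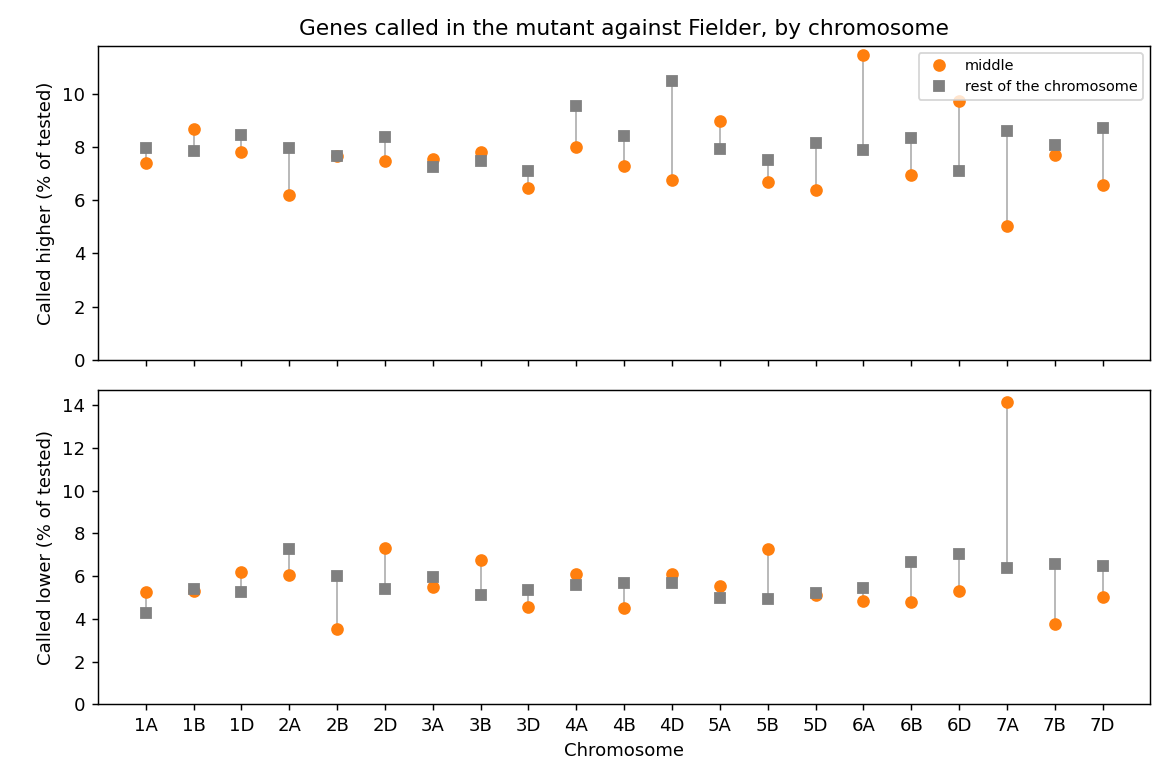
Percent of tested genes called higher (top) and lower (bottom) in the mutant on each chromosome, for the middle (orange circles) and the rest of the chromosome (grey squares), joined by a line. The 7A middle stands apart in the lower panel at 14.2% and the 6A middle is highest in the upper panel at 11.5%.

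On 7A, a run of neighbouring middle genes was nearly without counts in the mutant. It reached from TraesCS7A02G316900 to TraesCS7A02G327700 and held 77 listed genes, between the 55.4th and 57.6th percentile of rank, all of them in the middle. The limits of the run were set from these values, so its counts are a description. Summed over the run, the counts were 16244, 18946 and 22796 in Fielder against 22, 21 and 21 in the mutant. Of the 77 genes, 64 had at least 20 counts over the Fielder libraries, and none of the 77 had more than 17 over the mutant libraries. In the mutant, 58 of the 77 had 0 counts in every library. All 56 tested genes of the run were called lower. Without them, 23 of the other 502 tested 7A middle genes (4.58%) fell, against 6.38% of the 7A rest.

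The genes of the run with the largest falls were well expressed in Fielder. TraesCS7A02G317500 had 3919, 5202 and 6819 counts in Fielder (339 ± 56.6 CPM, SD, n = 3) and 0 in each mutant library. Setting its mean CPM in Fielder against a floor of 3 counts in each mutant library, it was at least 1770-fold lower. TraesCS7A02G326800 had 560, 717 and 728 counts, and TraesCS7A02G325000 had 371, 520 and 343, against 0 in each mutant library, and they were at least 225-fold and 139.9-fold lower. TraesCS7A02G320800 (279, 253 and 355 counts) and TraesCS7A02G319000 (221, 238 and 392 counts) were also at 0 in each mutant library, at least 99.6-fold and 94.4-fold lower. The silence was shared by genes at very different Fielder levels. None of these identifiers is annotated in the sources used here.

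**Figure D5:**
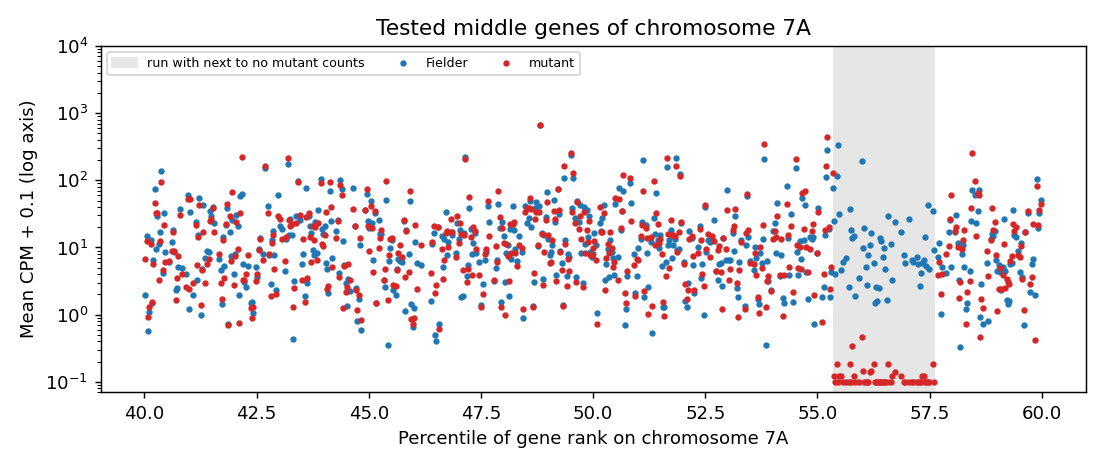
Mean CPM plus 0.1 (log axis) of each tested middle gene of chromosome 7A in Fielder (blue) and in the mutant (red), against its percentile of rank. In the shaded run, between the 55.4th and 57.6th percentile, the mutant points drop to the bottom of the axis while the Fielder points stay at the levels of their neighbours.

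The run also held most of the middle genes that were silent in the mutant. A gene was counted as silent in the mutant with at most 3 counts in each mutant library and at least 10 in each Fielder library. Of all listed genes 0.156% met this rule, and 60 middle genes (0.434%) did, 52 of them in the run. Outside the run 8 middle genes (0.0581%) were silent in the mutant, against 48 genes of the rest (0.0867%). Silent in Fielder by the same rule were 8 middle genes (0.0578%), against 88 of the rest (0.159%) and 0.137% of all listed genes.

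The largest rises in the middle were of genes near silence in Fielder. TraesCS2B02G367300 had 0 counts in each Fielder library and 69, 30 and 70 in the mutant, at least 18.4-fold higher. TraesCS2D02G327800 had 0 in each Fielder library and 52, 62 and 29 in the mutant, at least 15.5-fold higher. TraesCS5A02G256900, on the middle of 5A, had 0 and then 35, 34 and 14, at least 8.97-fold higher. The groups lay far apart in all of these. TraesCS4A02G226900 had 0, 0 and 3 counts in Fielder against 97, 92 and 94 in the mutant, at least 30.8-fold higher. TraesCS7D02G326800 had 2, 0 and 2 and then 78, 48 and 78, at least 22.2-fold higher.

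Outside 7A, the largest falls were also to near silence. TraesCS7D02G244500 had 278, 389 and 381 counts in Fielder against 9, 7 and 4 in the mutant, a log2 fold change of -5.70 ± 0.30 (SE, edgeR adjusted p = 5.1e-08). TraesCS7B02G262400 had 38, 103 and 106 counts and then 5, 0 and 0 (-5.52 ± 0.78, edgeR adjusted p = 2.2e-04), the mutant counts being those of replicate 1 alone. Without that replicate the mutant was at 0 and the fitted log2 fold change was -9.33, which depends on the prior count and is no bound. For both genes the lowest Fielder library was far above the highest mutant library. TraesCS3B02G270600 had 32, 17 and 75 counts and then 0, 0 and 1, at least 13.6-fold lower, or 8.92-fold without Fielder replicate 3. TraesCS1A02G211200 had 29, 21 and 34 and then 0, 1 and 0, at least 9.47-fold lower. TraesCS5A02G291200 had 37, 28 and 37 and then 2, 0 and 0, at least 11.6-fold lower.

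Of the 5 most abundant middle genes, 1 was called. TraesCS4A02G245100 had 9447, 12830 and 16625 counts in Fielder against 4505, 5709 and 3587 in the mutant. Its level fell from 826 ± 142 to 293 ± 67.9 CPM (SD, n = 3), a log2 fold change of -1.50 ± 0.17 (SE, edgeR adjusted p = 4.6e-05). TraesCS4A02G194400, at a median FPKM of 2098 the most abundant middle gene, had 15728, 14461 and 16854 counts and then 7668, 9443 and 6837. Its log2 fold change of -1.0 ± 0.14 (edgeR adjusted p = 2.2e-04) stood just short of the 2-fold limit. TraesCS7B02G217900 (median FPKM 805) had a log2 fold change of 0.01 ± 0.12. TraesCS7D02G313800 (median FPKM 713) and TraesCS4D02G167600 (median FPKM 694) had 0.45 ± 0.12 and 0.59 ± 0.15, with edgeR adjusted p-values of 0.016 and 0.0093, and were not called.

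Some of the genes that the paper names are middle genes, and their number was not set against the 20% share of the middle. Those of the TFL1-like family, the relatives of the edited gene, were TraesCS2B02G310700, with 82, 83 and 108 counts in Fielder against 123, 200 and 101 in the mutant (log2 fold change 0.62, edgeR adjusted p = 0.12), and TraesCS2D02G292000, with 126, 103 and 154 and then 90, 125 and 120 (-0.21, edgeR adjusted p = 0.59). Neither was called, and the groups overlapped for TraesCS2D02G292000 only, the mutant CPM of TraesCS2B02G310700 being higher in every library. Of the SPL homologs, transcription factor genes with a role in tillering, 2 are middle genes. TraesCS7D02G245200 had 4, 1 and 9 counts in Fielder against 47, 41 and 63 in the mutant and rose (3.40 ± 0.65, edgeR adjusted p = 0.0017), by 4.15 without Fielder replicate 3. TraesCS5A02G265900 had 14, 31 and 57 and then 87, 61 and 85 (1.21 ± 0.41, edgeR adjusted p = 0.043), and with each library left out it was still called in 1 of 6 fits, the adjusted p reaching 0.14. The paper had picked the SPL homologs from these libraries for their rise, so their direction is not independent evidence. A further middle gene had been measured by qRT-PCR. This gene, TraesCS5A02G316400, had 16, 45 and 35 counts and then 2, 13 and 10 (-1.91 ± 0.71, edgeR adjusted p = 0.060) and was not called. Its groups did not overlap, all mutant values being lower. The paper reports that qRT-PCR of the changed genes it selected matched the sequencing.

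Functions could be read only for genes of chromosomes 1A, 1B and 1D and some of 2A, from the readable part of the paper's list of changed genes. That part held 1078 genes. On 1A, 1B and 1D, to which the counts by function below are limited, it held 207 middle genes, of which 116 were called higher and 80 lower here. Of the rest of these chromosomes it held 745 genes, with 427 and 264, and this is the rest meant in those counts. The list was chosen by the change in these same libraries, so no direction below is independent evidence, and the counts only say which genes were on it.

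Genes of chromatin and of the cell cycle rose. Nucleosome genes, which include the histones that DNA is wound on, made up 14 of the listed middle genes, and 14 of 14 rose, with log2 fold changes between 1.12 and 1.94. In the rest, 46 of 48 rose. Of the 14, 9 lay close together, between the 51.5th and 52.02nd percentile of 1A, 1B and 1D. Histone genes are near-identical copies, so counts may be split among them. TraesCS1A02G228700, described as histone H2B.2, had 62, 133 and 233 counts in Fielder against 452, 440 and 395 in the mutant (1.61 ± 0.29, edgeR adjusted p = 0.0011). TraesCS1B02G244900 had 106, 115 and 250 and then 450, 565 and 474 (1.67 ± 0.25, edgeR adjusted p = 3.0e-04). TraesCS1B02G245300 had 16, 35 and 124 and then 194, 187 and 267 (1.94 ± 0.45, edgeR adjusted p = 0.0065), or 3.0 without Fielder replicate 3. Fielder replicate 3 was the highest and replicate 1 or 2 the lowest Fielder library for these, and relative to its mean the spread was wider in Fielder than in the mutant.

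The 4 middle genes of DNA replication all rose, as did 14 of 14 in the rest. TraesCS1B02G274600, assigned to the MCM complex, which opens the DNA helix for replication, had 825, 739 and 798 counts in Fielder against 3593, 3666 and 3629 in the mutant (2.18 ± 0.15, edgeR adjusted p = 5.9e-07). The DNA primase small subunit, which makes the primers for new DNA strands, had members on the middle of all homoeologs of chromosome 1 by description or shared term. TraesCS1D02G229400 had 90, 109 and 140 counts and then 434, 460 and 470 (2.0 ± 0.19, edgeR adjusted p = 7.2e-06). TraesCS1B02G242000 had 56, 139 and 92 and then 470, 478 and 448 (2.27 ± 0.25, edgeR adjusted p = 2.7e-05). TraesCS1A02G227700 had 160, 163 and 171 and then 471, 461 and 495, a log2 fold change of 1.51. Replicates of these genes lay close together in the mutant.

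Of the 10 cell division genes of the middle, 9 were tested and 9 rose, by between 1.10 and 2.18 on the log2 scale, against 30 of 31 tested in the rest. TraesCS1B02G274600 is counted both here and among the DNA replication genes. TraesCS1A02G209400, TraesCS1B02G223400 and TraesCS1D02G212800, between the 46.7th and 46.98th percentile, are also on the list of DNA-binding transcription factors. Possible homoeologs were counted separately, so the genes of a list need not be independent. TraesCS1A02G209400 had 78, 19 and 95 counts and then 255, 199 and 200 (1.74 ± 0.39, edgeR adjusted p = 0.0048), and TraesCS1B02G223400 had 71, 92 and 103 and then 241, 259 and 212 (1.41 ± 0.21, edgeR adjusted p = 3.1e-04). TraesCS1D02G212800, which is described as scarecrow-like protein 6, a GRAS-type transcription factor, had 138, 90 and 165 counts and then 341, 295 and 339. TraesCS1D02G248800, described as a P-type cyclin, had 133, 202 and 158 and then 394, 382 and 322. Mutant and Fielder libraries were fully apart for the 4 genes whose counts are given here.

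Protein folding had 2 middle genes, both of which rose by 1.01, against 18 of 19 in the rest. TraesCS1D02G217600, described as a chloroplast 10 kDa chaperonin, had 115, 139 and 167 counts and then 289, 304 and 264, and TraesCS1A02G214600 had 164, 194 and 223 and then 419, 388 and 376. Both stood near the 2-fold limit and were no longer called without Fielder replicate 1, and the former also without mutant replicate 2. Ribosome, hormone signalling and spliceosome genes were on the list only outside the middle, with 27, 7 and 6 genes in the rest. As the list held 207 middle genes against 745 of the rest, and changed genes only, no absence of these families from the middle is read.

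The thylakoid and antenna list had 4 middle genes, of which 3 were tested and rose, against 16 of 17 tested in the rest. The fourth, TraesCS1D02G191700, described as PAM68-like, had 8, 38 and 43 counts in Fielder against 6, 10 and 2 in the mutant and did not pass the filter. Of the 3 that rose, only TraesCS1D02G208400 has a description that names a protein, and it is not an antenna protein. TraesCS1D02G208400, described as a NEP1-interacting protein, had 107, 92 and 120 counts and then 499, 567 and 570 (2.34 ± 0.19, edgeR adjusted p = 2.3e-06). TraesCS1B02G218700 had 21, 39 and 23 and then 195, 287 and 323 (3.26 ± 0.31, edgeR adjusted p = 9.2e-06), and TraesCS1A02G205100 had 84, 146 and 92 and then 332, 525 and 468 (2.03 ± 0.25, edgeR adjusted p = 7.9e-05). They lie between the 45.5th and 45.9th percentile of their chromosomes.

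DNA-binding transcription factors went both ways. They made up 16 (7.73%) of the listed middle genes and 20 (2.68%) of those in the rest, and of 15 tested in the middle 6 rose and 9 fell, against 6 and 12 of 18. The 6 that rose are TraesCS1A02G209400, TraesCS1B02G223400 and TraesCS1D02G212800, which are also on the cell division list, and the ethylene response factors below. Genes described as ethylene response factors, which act in hormone and stress responses, rose on all homoeologs of chromosome 1. TraesCS1D02G230900 had 50, 84 and 90 counts in Fielder against 323, 447 and 399 in the mutant (2.38 ± 0.23, edgeR adjusted p = 9.5e-06). TraesCS1B02G243200 had 77, 122 and 260 and then 645, 822 and 831 (2.35 ± 0.29, edgeR adjusted p = 7.0e-05), and TraesCS1A02G231200 had 74, 177 and 175 and then 435, 665 and 609, a log2 fold change of 2.02. Among those that fell, TraesCS1D02G220500, described as DIVARICATA-like, a MYB-type factor, had 396, 422 and 488 counts and then 118, 92 and 116 (-2.02 ± 0.19, edgeR adjusted p = 6.8e-06). TraesCS1D02G223200, described as a GATA factor, had 134, 59 and 153 and then 44, 49 and 65, a log2 fold change of -1.15. TraesCS1D02G257700, described as PCL1-like, a part of the circadian clock, had 84, 143 and 189 and then 55, 83 and 66, a log2 fold change of -1.01. The groups overlapped for the GATA factor.

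Of the listed glutathione genes, some on 1A and 1D fell at the start of the middle, and others on 1A, 1B and 1D rose at its end. Possible homoeologs count separately, and unchanged glutathione genes and most chromosomes are not covered, so no pattern across the middle is read from them. Glutathione S-transferases join glutathione to reactive or foreign compounds. Of 6 listed middle genes, 3 rose and 3 fell, against 2 and 8 of 10 in the rest. Those that fell lie between the 40.5th and 40.8th percentile. TraesCS1D02G189600, described as U17-like, had 156, 78 and 197 counts and then 39, 33 and 9 (-2.44 ± 0.45, edgeR adjusted p = 0.0014). TraesCS1A02G187000, of the same description, had 74, 136 and 114 and then 16, 31 and 20 (-2.27 ± 0.37, edgeR adjusted p = 5.7e-04), and TraesCS1A02G186500 had 401, 341 and 287 and then 53, 115 and 88 (-2.04 ± 0.29, edgeR adjusted p = 2.1e-04). Those that rose lie between the 57.7th and 59.3rd percentile. TraesCS1D02G257800, described as GST 23-like, had 238, 186 and 354 counts and then 1131, 807 and 1011 (1.91 ± 0.21, edgeR adjusted p = 2.4e-05), and TraesCS1B02G269100 had 255, 242 and 559 and then 1182, 1118 and 983 (1.65 ± 0.23, edgeR adjusted p = 1.9e-04).

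Of 6 middle genes on the defense list 3 rose and 3 fell, whereas in the rest 3 rose and 19 fell of 22 tested. That list leaves out TraesCS1A02G211200, annotated with defense response to fungus, which fell (29, 21 and 34 counts, then 0, 1 and 0). Genes of the rest left out in the same way were not counted. The 3 that rose are the glutathione genes that rose. Of those that fell, TraesCS1D02G236200, described as BONZAI 3-like, had 787, 919 and 955 counts and then 412, 301 and 423, a log2 fold change of -1.25, and TraesCS1A02G218100 had 92, 319 and 229 and then 66, 30 and 115 (-1.59 ± 0.43, edgeR adjusted p = 0.015). The groups overlapped for TraesCS1A02G218100, and its call was lost without Fielder replicate 2, mutant replicate 1 or mutant replicate 2, the adjusted p then reaching 0.093. The difference in direction between middle and rest was not tested. Of 4 ubiquitin ligase genes, whose products mark proteins for breakdown, 1 rose and 3 fell, against 7 and 12 of 20. TraesCS1A02G230300 had 215, 147 and 141 counts and then 50, 29 and 72 (-1.78 ± 0.35, edgeR adjusted p = 0.0021). TraesCS1A02G201700 (44, 26 and 34, then 14, 5 and 5) and TraesCS1B02G244300 (12, 18 and 21, then 97, 17 and 75) had few counts, and each lost its call with some libraries left out, in 3 and 4 of 6 fits.

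The largest changes among listed middle genes with a named protein were of genes with few counts. TraesCS1A02G254800, described as ERL2, a receptor kinase of the ERECTA family, had 5, 6 and 34 counts in Fielder against 83, 81 and 126 in the mutant (2.72 ± 0.54, edgeR adjusted p = 0.0024), or 4.01 without Fielder replicate 3. TraesCS1A02G196700, described as a 4-coumarate-CoA ligase-like enzyme, had 4, 13 and 41 and then 121, 90 and 92 (2.41 ± 0.51, edgeR adjusted p = 0.0036), or 3.46 without that library. TraesCS1A02G236900, described as a nodulation receptor kinase, had 10, 0 and 4 and then 40, 37 and 42 (3.0 ± 0.81, edgeR adjusted p = 0.014). Its log2 fold change was 4.30 without Fielder replicate 1 and 2.41 without Fielder replicate 2, and it was not called without mutant replicate 3. TraesCS1D02G249000, described as the kinase PBL7, had 2, 6 and 7 and then 22, 31 and 29 (2.43 ± 0.68, edgeR adjusted p = 0.017), and it was not called without mutant replicate 2 or 3. The groups did not overlap for these genes.

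Among the falls, TraesCS1D02G238800, described as SBT1.8, a subtilisin-like protease, had 104, 49 and 40 counts and then 5, 2 and 22 (-2.78 ± 0.70, edgeR adjusted p = 0.010). It fell by 4.25 without mutant replicate 3, and was at -2.12 and not called without Fielder replicate 1. TraesCS1A02G239500, described as the receptor kinase SD1-8, had 26, 18 and 15 and then 1, 1 and 4 (-3.26 ± 0.87, edgeR adjusted p = 0.014). It fell by 4.21 without mutant replicate 3, and was not called without Fielder replicate 1, mutant replicate 1 or mutant replicate 2. With so few counts, these values carry wide errors.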

How the data were processed

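Axillary bud RNA of Fielder and the tatfl1-5 mutant was sequenced in 6 libraries, grouped by the genotype in the labels. The authors aligned reads to the Ensembl Plants wheat genome with its genes and deposited raw counts of 70043 genes, and FPKM values made from them. The aligner, counter and their versions are not given in the sources used here. The methods name a NEBNext kit and the labels a SMARTer kit. Columns without a sample numbered 0. The middle genes, lists and tests were chosen with earlier results of these data known.

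Counts were tested with edgeR 4.0.16 (filterByExpr, TMM, quasi-likelihood, Benjamini-Hochberg over 52228 genes) in R 4.3.3. Library values were compared by exact permutation with scipy 1.17.1, where 3 against 3 cannot go below p = 0.1. Fold limits set the mean CPM of the higher group against the mean CPM of 3 counts per library in the other group. They are thus bounds on the ratio of group means and not of single libraries. The SE is the log2 fold change over the square root of F. The p-values measure the spread between replicates, of 1 edited line in the mutant.

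Genes were named by a rule. It took the 5 largest rises and falls among called middle genes (at least 10 counts in the higher group, no overlap), the 5 largest falls on 7A, the 5 highest median FPKM values, genes named in the paper, and, among annotated genes, up to 3 per list and 5 in each direction with a described protein. Others named beside a list (a P-type cyclin, scarecrow-like, GATA, PCL1-like and BONZAI genes and homoeologs) were chosen after their values were seen. Annotation came from the part of the paper's supplementary list at hand. Of the identifiers, 0 matched the RefSeq table, so no sequence or position is given. On simulated counts of 52228 genes, 200 of 200 genes changed by a log2 of 2 were recovered with 6 false calls. The changed genes were drawn from those with higher counts, and all genes had the same simulated spread between replicates. The simulation thus cannot tell how many changes are missed at low counts or near the 2-fold limit.

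Alternatives were RLE and library-size scaling, DESeq2 1.42.0, other filters and thresholds, limma 3.58.1 on log2 FPKM with pseudocounts of 1 and 0.1, the replicate block, other limits of the middle, and leaving out libraries, the 7A run or chromosome 7A.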

Additional observations from a re-analysis of the deposited data

How the results depend on the processing

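Counts of calls near thresholds, low counts and 3 libraries per group limit these comparisons, and ranks do not give positions. The share of middle genes called higher (7.48%) was 1.41% under the edgeR test against a 2-fold change, 4.63% under limma-trend on log2(FPKM + 1) and 13.7% on the adjusted p alone. The share called lower (5.89%) was 1.24% under the 2-fold test and 13.1% on the adjusted p alone. Scaled by library size alone, 6.72% were called higher and 7.16% lower. The called-higher share relative to the rest, 0.923, stayed below 1 under all 22 alternatives run.

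The called-lower share relative to the rest, 1.03, fell below 1 without the 7A run as first listed (0.953), without the wider run chosen after seeing the data (0.944), without chromosome 7A (0.956), with at least 10 counts in every library (0.981), with limits at the 45th and 55th (0.990) or 35th and 65th percentile (0.967), and with limits on the identifier range (0.999). Apart from the settings that leave out the run or 7A, the cause was not tested.

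The log2 ratio of median FPKM (0.355) was 0.394 on CPM, 0.081 among tested genes only, 0.320 and 0.450 with the narrower and wider limits and 0.402 on the identifier range. The gap in expressed genes (5.60 points) was 5.22 at an FPKM of 0.5, 4.87 at 10 counts, 5.02 for genes passing filterByExpr, 1.75 among tested genes only, 5.25 and 6.63 with the narrower and wider limits, 6.18 on the identifier range, and 5.77 and 5.79 without the run and the wider run. The tested genes are those with counts in enough libraries by construction, and the cause of the other moves was not tested. The mutant spread ratio (0.954) was 1.008 in genes under a mean log2 CPM of 0 and 1.010 between 4 and 6. The difference in the share of counts (-0.258 points) was 0.137 with the narrower limits.

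With each library left out in turn, the share called higher ranged from 6.04% to 8.92%, the share called lower from 5.02% to 6.36%, their ratios to the rest from 0.904 to 0.956 and from 1.035 to 1.099, the log2 ratio of median FPKM from 0.346 to 0.361, the gap in expressed genes from 5.55 to 5.62 points, the spread ratios from 0.955 to 0.981 in Fielder and from 0.950 to 0.974 in the mutant, and the difference in the share of counts from -0.401 to -0.181 points. Replicate numbers did not pair the samples, since deviations of libraries with the same number correlated at -0.024, 0.051 and 0.0094 and not every library correlated best with its own number. With the replicate block, 7.71% of tested middle genes were called higher and 5.72% lower (0.922 and 1.02 relative to the rest). Alternatives were run for 56 of the named genes, of which 31 passed the filter of 10 counts in every library. None of the 56 reversed where it was tested, but many had been picked for large changes, so little is read from that. Under the edgeR test against a 2-fold change 18 were weaker. Under limma-trend on log2(FPKM + 1) 8 were weaker and 1 stronger, and without Fielder replicate 1, 7 were weaker and 1 stronger. For the genes named beside a list after their values were seen, the alternatives were not run.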
